A study of Mus musculus with 31 samples.

Results

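The genes described here are 10 genes of antigen processing and presentation out of 18194 genes measured on the arrays. Of these, 6 belong to the MHC class I route (B2m, Tap1, Tap2, Tapbp, Psmb8 and Psmb9) and 4 to the class II route (Cd74, H2-Aa, H2-Ab1 and H2-Eb1). They and the lists of other genes used below were chosen by name, with earlier results of these data known. Each gene is represented by 1 probe set, the one with the highest mean over all 31 arrays among those assigned to that gene alone. All 10 have such a probe set, and none was removed by a filter on low values.

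The study profiled mouse medulloblastoma, a tumour of the cerebellum, and neural stem cells on Affymetrix arrays. It compared hindbrain stem cells, from which the tumours may arise, with stem-like cells grown from tumours of Ptch-mutant mice. Tumour tissue came from 8 Ptch het p53 wt mice, and a cancer stem cell line was grown from each of the same 8 tumours. Cancer stem cells from 2 Ptch het p53 het tumours, named 27 and B, were each hybridised on 3 technical replicate arrays, which were averaged so that n is 2. Neural stem cells (NSC) came from the IV ventricle region, the cerebellar white matter and the subventricular zone (SVZ) of mice at postnatal day 7, with 3 cultures each. The sample codes of the NSC hold WT, and their labels give no other genotype. All animals were C57BL/6, all tumour groups carry the Ptch mutation, and no age is given for the tumours. Every culture, tumour-derived or not, was grown as neurospheres with EGF and FGF2 and collected 3 to 5 days after plating, whereas the tissue was bulk tumour with whatever host cells it contained. Fewer cells of a type and less RNA per cell cannot be told apart in bulk samples.

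Class I molecules stand on nearly every nucleated cell and show peptides from inside the cell. The proteasome cuts proteins into peptides, and its interferon-inducible subunits Psmb8 and Psmb9 replace constitutive ones in the immunoproteasome. Tap1 and Tap2 form the pump that carries peptides into the endoplasmic reticulum, Tapbp (tapasin) holds the empty class I molecule to that pump, and B2m is the light chain every class I molecule needs. Class II molecules show peptides from outside the cell and are largely restricted to professional antigen-presenting cells such as dendritic cells, B cells and activated macrophages or microglia. H2-Aa and H2-Ab1 encode the chains of I-A, H2-Eb1 the beta chain of I-E, and Cd74 the invariant chain that guards their groove. In C57BL/6 mice I-E is not displayed because the gene for its alpha chain is defective.

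Of the 10 genes, 8 lie on chromosome 17, in the mouse MHC region. RefSeq promoter sequences (build GRCm38.p6) were matched for 7 of the 10. The 250 bases before the start are shown for both class II genes matched and for 4 of the 5 class I genes matched, because class I and class II genes are known to share promoter elements with one another and with interferon-induced genes. Capitals mark matches, on either strand, to 4 motif cores: the Y box ATTGG, the X box AGNAACNGA, the interferon-stimulated response element GAAANNGAA and the gamma-activated site TTCNNNGAA, none of which overlapped here. The windows are chr17:34305617-34305866 on the + strand for H2-Eb1, chr17:34287824-34288073 on the - strand for H2-Aa, chr2:122147437-122147686 on the + strand for B2m, chr17:34187306-34187555 on the + strand for Tap1, chr17:34197945-34198194 on the + strand for Psmb8 and chr17:33919228-33919477 on the + strand for Tapbp. The window of Psmb9 is largely the opposite strand of that of Tap1 and is not printed.
H2-Eb1: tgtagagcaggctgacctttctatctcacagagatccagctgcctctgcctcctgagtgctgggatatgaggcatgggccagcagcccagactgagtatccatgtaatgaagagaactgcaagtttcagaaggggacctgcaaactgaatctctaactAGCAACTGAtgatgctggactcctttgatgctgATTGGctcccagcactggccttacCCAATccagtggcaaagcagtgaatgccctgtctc
H2-Aa: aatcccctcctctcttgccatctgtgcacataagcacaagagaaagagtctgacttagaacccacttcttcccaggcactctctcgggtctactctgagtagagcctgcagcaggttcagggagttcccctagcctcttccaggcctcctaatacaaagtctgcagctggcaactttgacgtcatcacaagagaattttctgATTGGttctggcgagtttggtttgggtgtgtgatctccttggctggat
B2m: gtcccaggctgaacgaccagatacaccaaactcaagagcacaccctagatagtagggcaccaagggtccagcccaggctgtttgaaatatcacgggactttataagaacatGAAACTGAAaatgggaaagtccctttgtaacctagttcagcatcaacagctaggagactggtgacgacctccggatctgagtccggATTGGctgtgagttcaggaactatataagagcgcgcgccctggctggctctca
Tap1: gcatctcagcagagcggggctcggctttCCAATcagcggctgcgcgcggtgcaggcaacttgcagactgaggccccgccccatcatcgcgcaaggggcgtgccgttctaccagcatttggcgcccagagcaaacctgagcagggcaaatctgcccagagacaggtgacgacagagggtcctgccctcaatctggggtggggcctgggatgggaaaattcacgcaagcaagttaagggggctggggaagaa
Psmb8: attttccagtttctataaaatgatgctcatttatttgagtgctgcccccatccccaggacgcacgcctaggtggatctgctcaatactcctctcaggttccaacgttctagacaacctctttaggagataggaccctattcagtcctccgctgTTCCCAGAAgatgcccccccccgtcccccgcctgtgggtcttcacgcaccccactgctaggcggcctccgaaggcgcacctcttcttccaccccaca
Tapbp: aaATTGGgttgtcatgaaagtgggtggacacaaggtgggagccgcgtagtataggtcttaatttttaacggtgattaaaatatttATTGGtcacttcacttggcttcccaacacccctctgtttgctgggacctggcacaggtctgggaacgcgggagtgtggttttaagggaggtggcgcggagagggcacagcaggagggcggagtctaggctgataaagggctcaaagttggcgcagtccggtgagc
H2-Eb1 held the X box core at -92 to -84 from its start and the Y box core at -59 to -55, with another on the opposite strand at -35 to -31. H2-Aa held the Y box core at -48 to -44, and B2m held it at -53 to -49 beside a response element core at -139 to -131. In Tap1 it lay at -222 to -218 on the opposite strand, which is also -8 to -4 of Psmb9, since the 2 genes run away from each other with starts 226 bases apart. Psmb8 held a gamma-activated site at -97 to -89. Tapbp held the Y box core at -248 to -244 and at -165 to -161. Among 32851 promoter windows of the same length, 33.8% held the Y box core, 4.42% the X box core, 7.13% the response element core and 7.02% the gamma-activated site. A match is a description of the letters and not evidence of binding.

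Values are log2 levels after normalisation by the authors, and a log2 difference of 1 stands for a factor of 2. As a guide to the bottom of the scale, 14 genes of other organs had a median level of 1.67 and a 90th percentile of 2.79 over 378 values, and the highest was 4.99. Of these 14, 0 were called higher and 5 lower in tissue than in lines. All 8 granule neuron lineage genes were called higher in tissue than in lines. The 7 stem cell genes were split: Nes, Sox2, Vim and Fabp7 were lower in tissue than in lines, and Pax6, Msi1 and Prom1 higher. Over all genes 23.1% were called higher and 26.6% lower. The deviations of a tissue and its own line from their groups correlated at -0.038 to 0.25 over genes, and a tissue matched its own line best in 5 of 8 tumours. Tissue 77 matched line 83 best and tissue 83 matched line 77 best. Tissue 74 also matched line 83 best, with r = 0.087 for its own line. The tests of the 10 members were therefore repeated without each pair in turn, and some list counts are given without pair 77. Pairs 77 and 83 were left out together only in the fit of pairs whose tissue and line share a date mark in their sample codes. That fit includes pair 74 and called 8 of the 10 members, 6 higher and 2 lower.

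**Figure D1:**
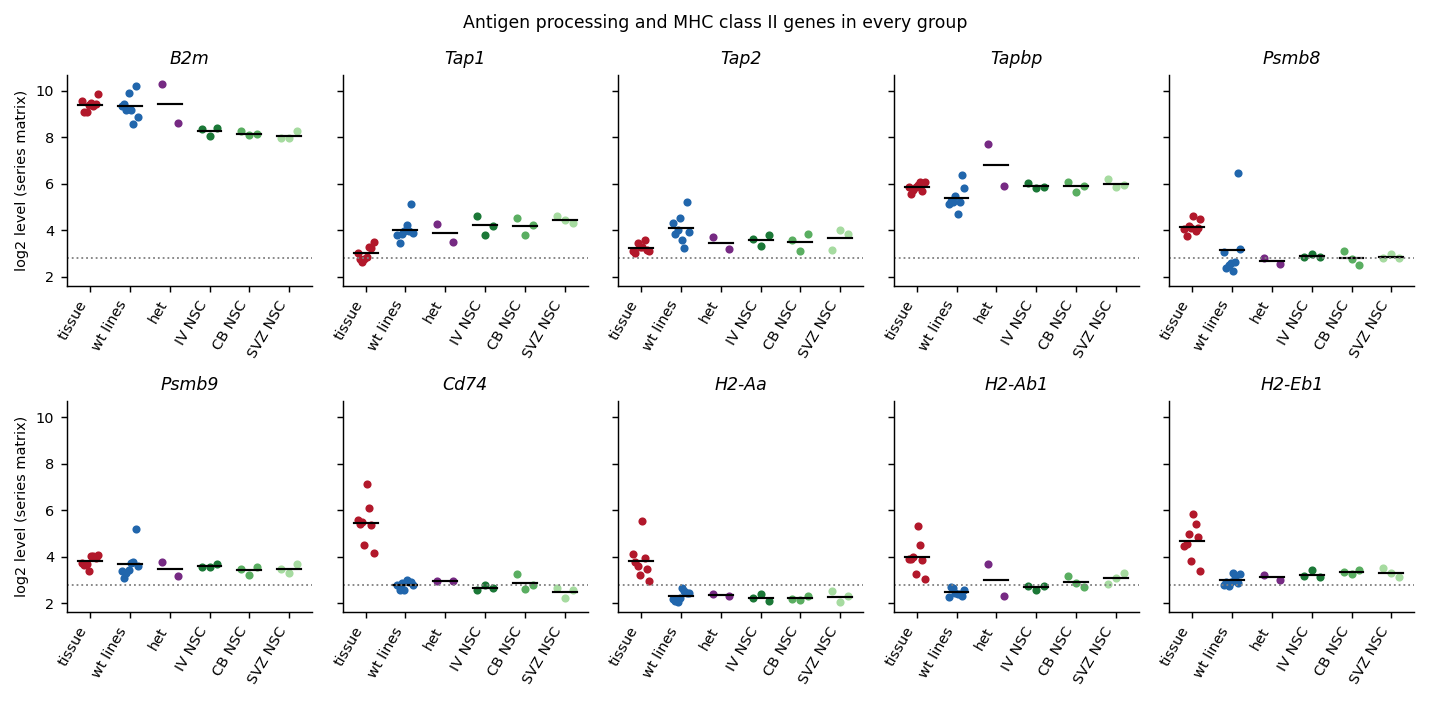
Log2 level of each of the 10 genes in every sample, by group (tissue, p53 wt lines, p53 het cultures and the 3 NSC regions), with a point for each sample and a bar for the group mean. Cd74 and H2-Aa stand above all cultures in tissue, while H2-Ab1 and H2-Eb1 overlap some cultures. B2m is higher in tissue and in all tumour-derived cultures than in any NSC. The lowest of these, line 68 (8.58) and p53 het tumour B (8.62), lie close to the highest NSC (8.42). For Psmb8 and Psmb9, 1 p53 wt line lies far above the others.

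All 4 class II genes were higher in tumour tissue than in the lines grown from the same tumours, and no tissue overlapped any line for any of them. The class I genes did not follow: Tap1 and Tap2 were lower in tissue, and B2m, Tapbp, Psmb8 and Psmb9 did not pass the test. The comparison was paired by tumour with limma, and called genes have a Benjamini-Hochberg adjusted p under 0.05 over all 18194 genes. It called 6 of the 10 genes, 4 higher and 2 lower in tissue. Over all genes 49.6% were called, 23.1% higher and 26.6% lower, so a call alone says little here. With arrays centred on their medians the share of calls that were higher was 34%, against 46.5% without centring. Ranges lay wholly above the lines for 11.3% of all genes and wholly below for 11.6%.

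Cd74 had a lowest level of 4.15, a median of 5.45 and a highest of 7.14 in tissue, against 2.57, 2.84 and 2.98 in the lines. The highest line was thus below the lowest tissue, and the lines sat near the level of genes of other organs. The paired difference was 2.67 ± 0.25 (SE, limma adjusted p = 1.06e-05), higher in 8 of 8 pairs. By tumour it ran between 1.39 in tumour 83 and 4.16 in tumour 49.

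H2-Eb1 had 3.38, 4.69 and 5.83 in tissue as lowest, median and highest level, against 2.73, 2.91 and 3.31 in the lines. The lowest tissue, that of tumour 83, was just above the highest line. Its difference was 1.67 ± 0.24 (SE, limma adjusted p = 0.000235), higher in 8 of 8 pairs, with 0.13 in tumour 83 as the smallest. H2-Eb1 encodes the I-E beta chain, whose message can be made although the strain displays no I-E. The defective alpha chain gene H2-Ea, named after its values were seen, had 4.37 to 4.98 in tissue and 4.23 to 5.04 in lines and did not separate the groups.

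H2-Ab1 levels in tissue were 3.06 at the lowest, 3.90 at the median and 5.33 at the highest, against 2.27, 2.41 and 2.69 in the lines. The groups were separate, and the difference was 1.52 ± 0.23 (SE, limma adjusted p = 0.000313), higher in 8 of 8 pairs. For H2-Aa, its partner in I-A, tissue had 2.93, 3.69 and 5.53 and the lines 2.06, 2.31 and 2.66. Here too the groups did not overlap, and the difference was 1.50 ± 0.22 (SE, limma adjusted p = 0.000226). Other probe sets of these genes differed in size: a second H2-Aa probe set averaged 5.53 in tissue and 1.56 in lines, a difference of 3.97, whereas another near the bottom of the scale differed by 0.28 (limma adjusted p = 0.0513). The 2 other H2-Ab1 probe sets differed by 0.85 and 0.39.

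**Figure D2:**
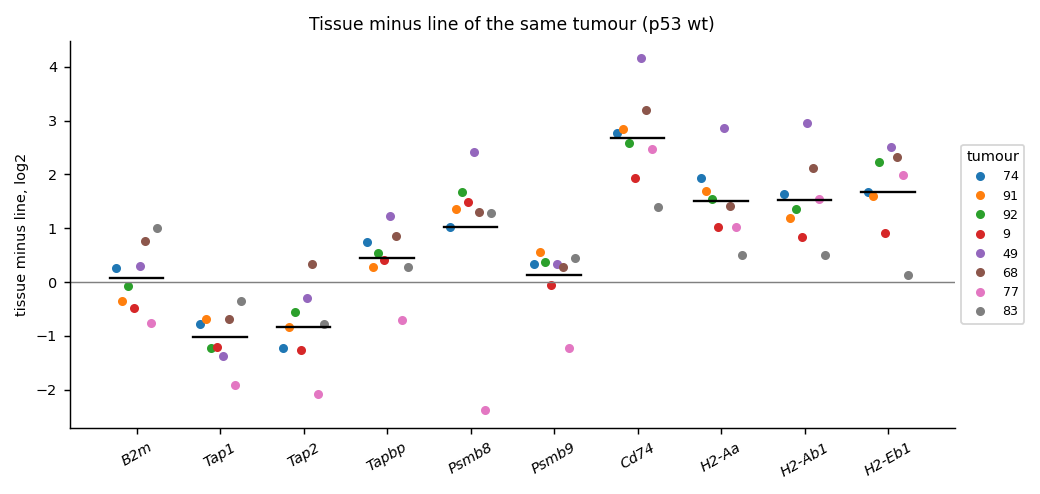
Difference in log2 level between each tumour's tissue and its own line for the 10 genes, with a point for each of the 8 tumours coloured by tumour and a bar at the mean. All points of the class II genes lie above 0 and all of Tap1 lie below it, and tumour 77 is the lowest point for B2m, Tap1, Tap2, Tapbp, Psmb8 and Psmb9.

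The peptide pump ran the other way. Tap1 had 2.63, 2.94 and 3.51 in tissue as lowest, median and highest, against 3.43, 3.91 and 5.13 in the lines. Tissue was low throughout, and only tissue 83 reached the lowest line. The tissue levels lay near 2.79, the 90th percentile of genes of other organs. Of those 14 genes, 5 were called lower in tissue too, and their median difference was -0.121. The difference was -1.03 ± 0.15 (SE, limma adjusted p = 0.00029), lower in 8 of 8 pairs. Of the other Tap1 probe sets, 1 was lower by less (-0.33, limma adjusted p = 0.0159), and 2 whose levels were those of genes of other organs were not called.

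Tap2 had 3.03, 3.20 and 3.58 in tissue and 3.25, 3.97 and 5.23 in the lines. The ranges overlapped, and line 77 was the highest. Tissue levels of Tap2 were also not far above 2.79, the 90th percentile of genes of other organs. Its difference was -0.84 ± 0.22 (SE, limma adjusted p = 0.00893), lower in 7 of 8 pairs. In the 4 pairs whose sample codes carry different date marks the call of Tap2 was lost (-0.71, limma adjusted p = 0.214, within a range of 0.00192 to 0.214 over the settings tried), while Tap1 and the 4 class II genes kept theirs.

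The class I light chain did not differ beyond its spread. B2m had 9.08, 9.42 and 9.86 in tissue and 8.58, 9.26 and 10.19 in the lines, and the difference was 0.08 ± 0.19 (SE, limma adjusted p = 0.759). Tissues lay within the range of the lines. Tapbp was 5.55, 5.88 and 6.09 in tissue and 4.70, 5.25 and 6.40 in the lines, with a difference of 0.45 ± 0.18 (SE, limma adjusted p = 0.0562).

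The inducible proteasome subunits hung on 1 pair. Psmb8 had 3.74, 4.09 and 4.64 in tissue as lowest, median and highest, against 2.23, 2.62 and 6.48 in the lines. Tissue was the higher in 7 of 8 pairs, by 1.03 to 2.41, and in tumour 77 the difference was -2.38. With all pairs the difference was 1.02 ± 0.43 (SE, limma adjusted p = 0.0728). Psmb9 had 3.38, 3.83 and 4.05 in tissue and 3.08, 3.52 and 5.17 in the lines, with a difference of 0.13 ± 0.18 (SE, limma adjusted p = 0.57). Without pair 77, Psmb8 (1.51, limma adjusted p = 3.86e-05), Psmb9 (0.33, 0.00822) and Tapbp (0.62, 0.00256) were called higher, which made 9 of 10 genes, 7 higher and 2 lower. Over all genes 49.6% were called with all pairs, and the share without pair 77 is not given here. Leaving out any other pair, that of tumour 83 included, left the count of members called at 6. Over the settings tried the adjusted p of Psmb8 ranged between 3.86e-05 and 0.558, that of Psmb9 between 0.00822 and 0.927 and that of Tapbp between 0.00256 and 0.635. A fit that ignored which line came from which tumour called 7, adding Tapbp.

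The other genes of both routes did not move as a block between tissue and lines. Of 13 other class I genes measured, 4 were called higher and 6 lower, where 23.1% of all genes were called higher and 26.6% lower. Their median difference was -0.28, against -0.063 over all genes. H2-D1, a classical class I heavy chain, averaged 8.14 ± 0.31 in tissue and 5.35 ± 1.25 in lines (SD, n = 8 each), a difference of 2.79 ± 0.40 (SE, limma adjusted p = 0.000221). The proteasome activator subunit Psme3 differed by -0.92, the chaperone calnexin (Canx) by -0.62 and Psmb10, the remaining inducible subunit of the immunoproteasome, by -0.81, all called lower. H2-K1, the other classical heavy chain, averaged 7.23 ± 0.29 in tissue and 6.00 ± 1.04 in lines (SD, n = 8 each) and was named after its values were seen. Heavy chain genes are near copies of one another, so their probe sets may share signal. The classical heavy chains were thus called higher in tissue, and Psmb10 lower.

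Of 18 other class II genes measured, 6 were called higher and 2 lower, where 23.1% of all genes were called higher and 26.6% lower. Their median difference was 0.003. Cathepsin S (Ctss), which trims the invariant chain, averaged 8.96 ± 0.48 in tissue and 1.28 ± 0.19 in lines (SD, n = 8 each), a difference of 7.69. Legumain (Lgmn), a lysosomal protease, differed by 2.64, and the costimulatory ligand Cd86 by 0.74. Rfxank, a subunit of the factor that binds the X box, was lower, with a difference of -0.84. Ciita, the master coactivator of class II genes, averaged 1.92 in tissue and 1.97 in lines, was higher in tissue in 2 of 8 pairs and lay within the range of genes of other organs in both groups (limma adjusted p = 0.695). At such levels the arrays cannot show a difference of Ciita.

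In the constitutive proteasome core, 4 of 14 genes were called higher (Psma1 by 0.53, Psma7 by 0.45, Psma4 by 0.29 and Psma6 by 0.24), and Psmb6, the subunit that Psmb9 replaces, was called lower (-0.29). For these and the next 2 lists the shares of all genes were 23.1% called higher and 26.6% lower. Of 23 interferon response genes, 1 was called higher and 5 lower, and without pair 77 these counts were 7 and 4. Irf8, a factor also known for its role in macrophages and microglia, was higher by 1.22. The sensor Ddx58 (-1.24), the GTPase Irgm1 (-1.67) and the factor Irf1 (-0.56) were called lower. Of 7 interferon receptor and kinase genes, Jak1 was higher (0.74), and Tyk2 (-0.49) and Ifngr1 (-0.41) were lower. The median difference of the interferon response genes was -0.178 with all pairs and 0.281 without pair 77. It was -0.063 over all genes with all pairs. The direction of this list thus changed with pair 77, and the share of all genes called without that pair is not given here. A link of these genes to the class II levels was not tested.

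Several lists of host cell markers were, like the class II genes, higher in tissue than in lines. So were the granule neuron lineage genes, all 8 of them. Of 16 microglia and macrophage markers, 15 were called higher in tissue and 1, Laptm5, lower, and the list's mean level was 5.05 to 6.09 in tissue and 1.95 to 2.34 in lines. C1qb (7.09), C1qa (6.90), C1qc (6.13) and Tyrobp (5.73) were among the differences. All 8 endothelial markers were called higher, as were all 7 mural cell and fibroblast markers, of which 4 were called without pair 77. Rgs5 (5.62) and Dcn (4.25) had the largest differences of that list. Few lymphocyte markers passed: 1 of 5 for B cells (Cd79b, 0.23), and 0 higher and 2 lower of 6 for T cells (Cd8a, -0.24, and Cd3d, -0.26). Of 6 dendritic cell markers, 2 were called higher (Itgax, 0.90, and Zbtb46, 0.46) and 1 lower (Flt3, -0.24). Over all genes 23.1% were called higher and 26.6% lower. The B cell list averaged 1.80 to 2.24 in tissue and 1.80 to 2.28 in lines, and the T cell list 2.55 to 2.93 in tissue and 2.59 to 3.00 in lines, so for both lists the ranges overlapped. The part of each cell type in the class II levels was not tested.

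Set against hindbrain NSC (the IV ventricle and cerebellar cultures, each region weighted equally), tissue was again higher for all 4 class II genes, and here also for B2m and Psmb8. This comparison shares its tissue samples with the one against the lines, so the 2 are not independent. It called 8 of the 10 genes, 7 higher and 1 lower, where 52.4% of all genes were called, 23.7% higher and 28.7% lower. With arrays centred on their medians the 8 called were 6 higher and 2 lower, with Psmb9 lost and Tap2 added.

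Cd74 in the NSC was 2.56, 2.76 and 2.64 for the IV ventricle and 3.26, 2.60 and 2.78 for the cerebellum, all below the lowest tissue at 4.15. The difference was 2.69 ± 0.34 (SE, limma adjusted p = 2.61e-06). H2-Aa, at 2.10 to 2.40 in the same 6 cultures, was higher in tissue by 1.60 ± 0.29 (SE, limma adjusted p = 0.000135) without overlap. H2-Ab1 (1.18 ± 0.26, SE, limma adjusted p = 0.000957) and H2-Eb1 (1.38 ± 0.29, SE, limma adjusted p = 0.000616) were called higher with overlapping ranges, since the lowest tissues, 3.06 and 3.38, lay below the highest NSC, 3.16 and 3.43.

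B2m in the NSC was 8.35, 8.05 and 8.42 for the IV ventricle and 8.26, 8.08 and 8.15 for the cerebellum, against 9.08 or more in every tissue. The groups did not overlap, and the difference was 1.19 ± 0.11 (SE, limma adjusted p = 8.12e-08). Psmb8 was separate as well, 3.74 or more in tissue and 3.11 or less in the NSC, by 1.31 ± 0.12 (SE, limma adjusted p = 1.04e-07). Its call held over the settings tried, with differences between 0.64 and 1.39. The NSC levels of Psmb8 lay near 2.79, the 90th percentile of genes of other organs. Ranges lay wholly above the NSC for 14.7% of all genes and wholly below for 16.7%.

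Psmb9 was higher by 0.31 ± 0.11 (SE, limma adjusted p = 0.0237, between 0.00378 and 0.0793 over the settings tried), and the call was lost without cerebellar replicate 2. Tap1 was again lower in tissue, without overlap, with a difference of -1.19 ± 0.16 (SE, limma adjusted p = 5.36e-06). This difference ranged between -1.29 and -0.33 over the settings tried. The NSC had 4.63, 3.82 and 4.19 for the IV ventricle and 4.53, 3.81 and 4.25 for the cerebellum, all above the highest tissue. Of the 14 genes of other organs, 0 were called higher and 7 lower in tissue here, with a median difference of -0.218. Tap2 (-0.30, limma adjusted p = 0.0971) and Tapbp (-0.05) did not pass, but without cerebellar replicate 2 Tap2 was called lower (-0.40, limma adjusted p = 0.0263, within a range of 0.0263 to 0.268 over the settings tried).

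**Figure D3:**
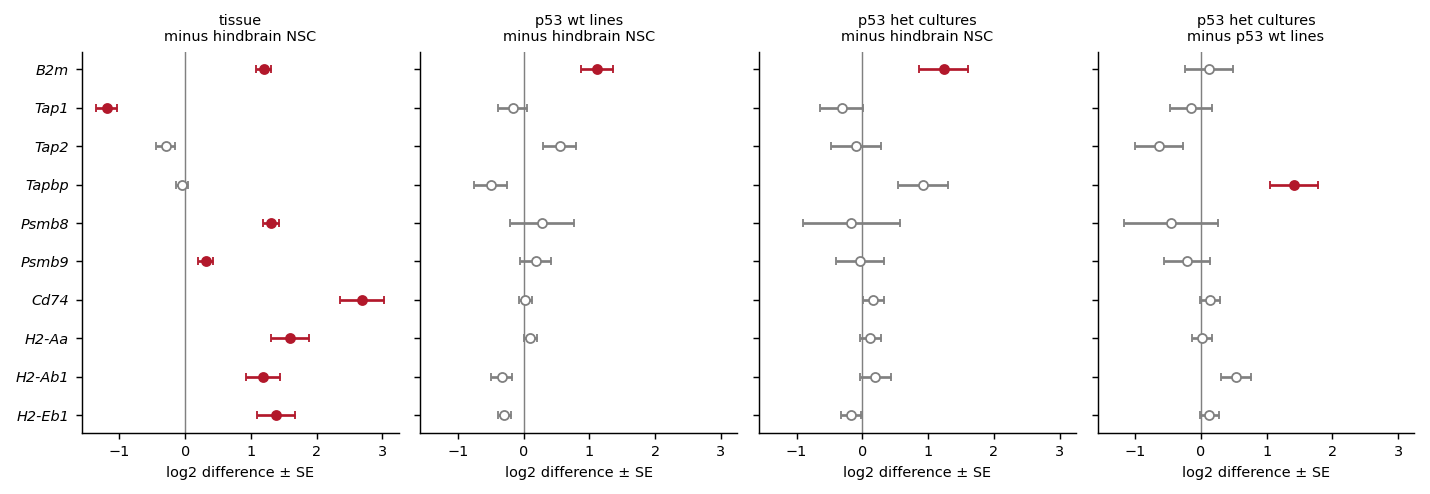
Log2 difference ± SE of the 10 genes in 4 comparisons: tissue, p53 wt lines and p53 het cultures, each against hindbrain NSC, and p53 het cultures against p53 wt lines. Filled red points have a limma adjusted p under 0.05; the class II genes are filled only in tissue, and B2m is filled in all 3 comparisons with NSC.

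Among cultures, B2m was the member that set tumour-derived cells apart from NSC. In the p53 wt lines it was 8.58 at the lowest, 9.26 at the median and 10.19 at the highest, and every line was above every hindbrain NSC culture. The difference was 1.12 ± 0.25 (SE, limma adjusted p = 0.00874), and a second B2m probe set gave 1.08 (limma adjusted p = 0.0204). B2m was the only member called of 10, where 9.56% of all genes were called, 3.51% higher and 6.06% lower, and where 0.934% had lines wholly above NSC and 2.52% wholly below. The lines carry 2 date marks in their sample codes: the 4 lines of the first gave 1.24 (limma adjusted p = 0.00649) and the 4 of the second 0.99 (limma adjusted p = 0.0912), and over all settings the adjusted p ranged between 0.00396 and 0.0912. With the mark as a random block it was 1.12 (limma adjusted p = 0.0406). No line shares a mark with an NSC culture, so a difference that goes with the marks cannot be told apart from one between the groups.

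The other members did not pass in this comparison. H2-Eb1 (-0.30, limma adjusted p = 0.0735) was called lower without line 49 or without line 83, and Tap2 (0.54), Tapbp (-0.50), H2-Ab1 (-0.34) and Psmb8 (0.28) had adjusted p of 0.203, 0.253, 0.21 and 0.803. Cd74 averaged 2.79 ± 0.15 in lines (SD, n = 8), with NSC at 2.66 ± 0.10 and 2.88 ± 0.34 for the IV ventricle and cerebellum (SD, n = 3 each). Of the 13 other class I genes, Canx was called higher (0.44) and Calr, the chaperone calreticulin, lower (-0.61), and of 18 other class II genes 0 were called.

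The cultures of the 2 p53 het tumours differed from each other for several members. Tumour 27 had B2m levels of 9.84 to 10.61 on its 3 arrays, against 8.51 to 8.76 for tumour B. Tapbp was 7.34 to 8.13 in tumour 27 and 5.74 to 6.19 in tumour B, and H2-Ab1 was 3.64 to 3.72 in tumour 27 and 2.18 to 2.51 in tumour B. No array of 1 tumour overlapped the other for these 3 genes, nor for Tap1, Tap2 and Psmb9, where tumour 27 was higher by 0.79, 0.51 and 0.59. Cd74 did not share the difference: 2.83 to 3.02 in tumour 27 and 2.88 to 3.02 in tumour B. Arrays of 1 tumour are technical replicates and carry no error between animals.

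With each tumour as 1 sample, B2m was higher than in hindbrain NSC by 1.24 ± 0.37 (SE, limma adjusted p = 0.0195), the only member called of 10, where 26.8% of all genes were called, 13.8% higher and 13% lower. The SE and p of the p53 het comparisons use 1 spread shared by all 19 cultures. They do not measure the spread between p53 het tumours, whose own SD for B2m was 1.19 (n = 2). Without tumour 27 the difference was 0.40 (limma adjusted p = 0.601) and without tumour B it was 2.08 (limma adjusted p = 0.00114), the extremes of the settings tried. Tapbp did not pass (0.92, limma adjusted p = 0.0893), except without tumour B (1.81, limma adjusted p = 0.00287) and with 6 arrays and the tumour as a random block (0.92, limma adjusted p = 0.0478). Against the p53 wt lines, Tapbp was higher by 1.42 ± 0.37 (SE, limma adjusted p = 0.00801), also the only member called of 10, where 26.3% of all genes were called, 14.5% higher and 11.8% lower. Its mean was 6.82 ± 1.27 in p53 het cultures (SD, n = 2) and 5.41 ± 0.51 in lines (SD, n = 8). The value was 0.52 (limma adjusted p = 0.442) without tumour 27 and 2.31 (limma adjusted p = 0.000372) without tumour B, so the call rests on tumour 27. Fitted on these groups alone the adjusted p was 0.0509, and a second Tapbp probe set gave 0.78 (limma adjusted p = 0.0291). H2-Ab1 was called only without tumour B, at 0.88 over NSC (limma adjusted p = 0.0034) and 1.21 over lines (limma adjusted p = 0.000215). These comparisons share the p53 het samples.

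Of 13 other class I genes, 1 was called higher against NSC, and 2 higher and 2 lower against lines. Erap1, which trims peptides in the endoplasmic reticulum, was higher in the p53 het cultures than in NSC (0.93) and than in lines (1.05). Of 18 other class II genes, 1 was called higher against NSC and 3 against lines, among them the lysosomal protease Ctsl (0.92 over NSC and 1.02 over lines) and the peptide editing chain H2-DMa (0.77 over lines). Stem cell markers differed as well: in p53 het cultures against lines, 0 of 7 stem cell genes were called higher and 5 lower. Nes averaged 6.86 in p53 het cultures and 8.91 in lines, Fabp7 10.46 in p53 het cultures and 12.44 in lines, and the fibroblast collagen Col1a1 4.11 in p53 het cultures and 1.82 in lines. The part of these in the levels of Tapbp or B2m was not tested.

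No member passed the test between the 3 NSC regions. Of the 10, 0 were called between IV ventricle and cerebellum, IV ventricle and SVZ, or cerebellum and SVZ with limma, where 0%, 0.764% and 1.1% of all genes were called. Of all genes, 0.352% were higher and 0.412% lower in the IV ventricle than in the SVZ, and 0.572% higher and 0.533% lower in the cerebellum than in the SVZ. At an unadjusted p under 0.05 there were 2: 0.0317 for H2-Ab1 (IV ventricle minus SVZ, -0.38, limma adjusted p = 0.446) and 0.0469 for Cd74 (cerebellum minus SVZ, 0.40, limma adjusted p = 0.356). Among interferon response genes only the chemokine Cxcl10 was called, lower in the IV ventricle (-1.23, limma adjusted p = 0.0315) and in the cerebellum (-1.42, limma adjusted p = 0.0161) than in the SVZ. The interferon-linked members Psmb8 and Psmb9 differed by at most 0.18 between regions.

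The line of tumour 77 stood apart among the p53 wt lines. It had the highest level of 8 lines for 6 of 6 class I members and for 0 of 4 class II members, where it was highest for 11.7% of all genes. Psmb8 was 6.48 in line 77, with the other lines at 2.23 to 3.18. Psmb9 was 5.17, with the others at 3.08 to 3.75, and Tap1 was 5.13, with the others at 3.43 to 4.23. For Psmb8 and Psmb9 the gap to the next line was over 1 on the log2 scale, which held for 0.418% of all genes. Tap2 (5.23 against a highest other of 4.54), Tapbp (6.40 against 5.82) and B2m (10.19 against 9.90) were highest by less.

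**Figure D4:**
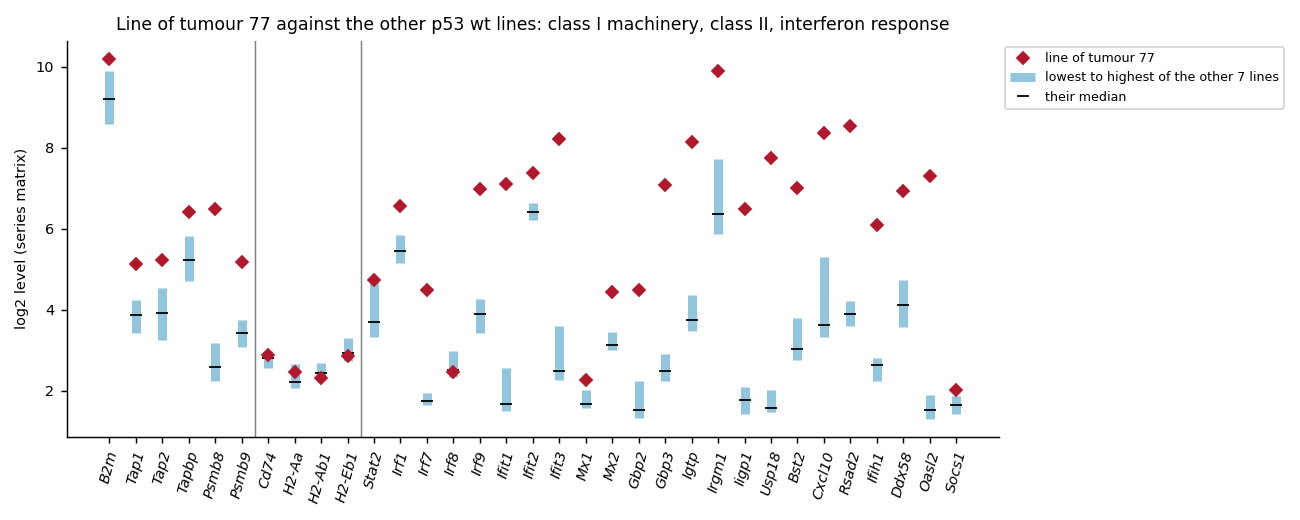
Log2 level of the 6 class I genes, the 4 class II genes and 23 interferon response genes in the line of tumour 77 (diamonds), with bars from the lowest to the highest of the other 7 lines and a tick at their median. The diamonds lie above the bars for all class I genes and for 22 of 23 interferon response genes, and within the bars for the class II genes.

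Interferon response genes were raised in the same line. Line 77 was the highest for 22 of 23 such genes, 16 of them by over 1, Irf8 being the exception. Usp18, Ifit3, Oasl2 and Cxcl10, all classical interferon-induced genes, were 7.73, 8.21, 7.30 and 8.37 in line 77, with the highest other line at 2.01, 3.60, 1.90 and 5.29. These 4 were named after their values were seen. The list's mean level was 6.29 in line 77, and the median line had 3.10. Of 7 interferon receptor and kinase genes, line 77 was highest for 0.

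Of the 13 other class I genes, line 77 was highest for 8, and for H2-D1 it stood at 7.34 with the highest other line at 5.69. H2-K1 was 7.47, with the others at 3.84 to 6.81. Nlrc5, the class I coactivator, was 2.41 with the others at 1.23 to 1.96, and Ciita was 2.04 with the highest other at 2.25. Both lay below the 90th percentile of genes of other organs, 2.79, where the arrays show differences poorly. By the other genes, the class I route was high and the class II route was not in this 1 culture. Line 49 was highest for 3 of 4 class II members by small margins, 0.05 to 0.14 above the next line, where it was highest for 19.8% of all genes. The tissue of tumour 77 lay within the range of the other tissues for all 6 class I members, among them Psmb8 at 4.10 and Psmb9 at 3.94.

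Among the tissues, tumour 83 had the raised interferon genes. It was the highest of 8 tissues for 17 of 23 of them, 7 by over 1, where it was highest for 13.4% of all genes and by over 1 for 0.258%. Usp18 was 5.52 in tissue 83 with the highest other at 2.06, and Ifit3 was 5.83 with the highest other at 3.29. Tissue 83 was the highest for 4 of 6 class I members (B2m, Tap1, Tapbp and Psmb9), none by over 1, and the lowest for 4 of 4 class II members. Line 83 itself was not raised, at 3.18 for Psmb8 and 3.61 for Psmb9. Whether tissue and line samples of tumours 77 and 83 were exchanged was not tested. Leaving out pair 83 alone changed no call of a member between tissue and lines.

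The class II genes varied together across tissues. Tissue 49 was the highest for 4 of 4, 2 of them by over 1 (Cd74 at 7.14 with the next at 6.09, and H2-Aa at 5.53 with the next at 4.10), where 16.3% of all genes were highest in it and 0.066% by over 1. Over the 8 tissues the 6 pairs of class II genes correlated at r = 0.80 to 0.99, which describes points that share an array and its normalisation. Their mean level was 5.96 in tissue 49, 4.99 in tissue 68, 4.38 to 4.51 in tissues 77, 91, 74 and 92, 3.70 in tissue 9 and 3.38 in tissue 83.

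**Figure D5:**
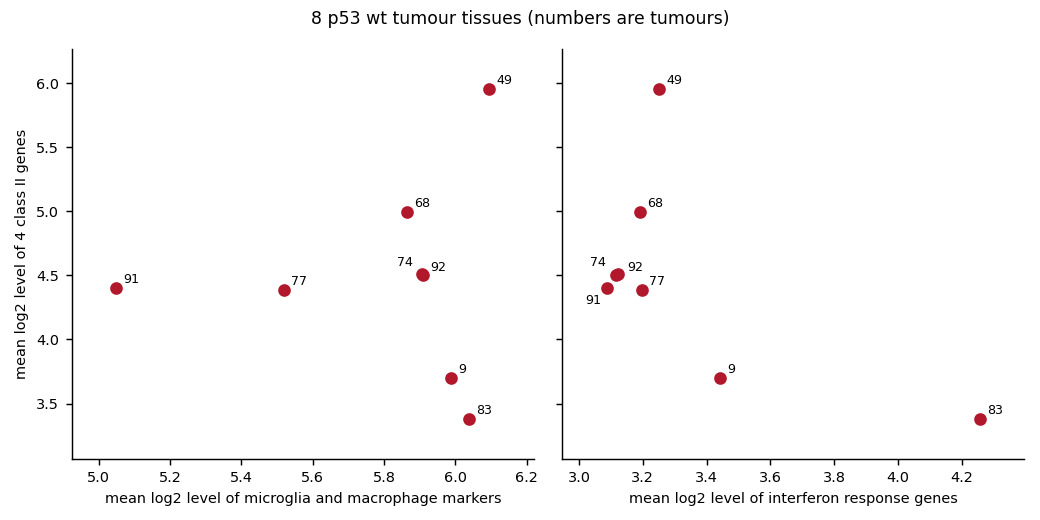
Mean log2 level of the 4 class II genes in each of the 8 tissues, against the mean level of 16 microglia and macrophage markers (left) and of 23 interferon response genes (right), with tumours numbered. Tissues 49 and 83 have nearly the same microglia mean, 6.09 and 6.04, and the highest and lowest class II means, 5.96 and 3.38.

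The microglia list did not order the tissues as the class II genes did. Its mean was 6.09 in tissue 49 and 6.04 in tissue 83, at opposite ends of the class II order, and 5.05 in tissue 91, in the middle of it. The correlation over 8 tissues was r = 0.08 (Spearman's rho 0.02, and r = 0.09 without tissues 91 and 77). With the interferon list it was r = -0.60 (rho -0.40), turning to 0.78 without tissues 83 and 9, so its sign rests on them. With mural cell and fibroblast markers it was r = 0.90 (rho 0.88), and 0.71 without tissues 49 and 83. With dendritic cell markers it was r = 0.54 (rho 0.45), and -0.33 without tissues 68 and 49. With B cell markers it was r = 0.72 (rho 0.62), and 0.18 without tissues 49 and 68, and with T cell markers r = 0.67 (rho 0.60), and 0.014 without tissues 49 and 9. The last 3 thus rest on a pair of tissues each, and the B and T cell lists have low levels. All these values describe 8 arrays, and endothelial and granule neuron markers (r = 0.53 and -0.32, and -0.29 and -0.26 without 2 tissues) were the other lists.

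The genes most like Cd74 over the 8 tissues, by Pearson's r among 18193 other genes, were H2-Ab1 (r = 0.99, rho 0.98), B9d1os (0.99, 0.93), Cmtm7 (0.97, 0.86), Trim10 (0.96, 0.93), H2-Eb1 (0.95, 0.83) and Med15 (0.95, 0.83). H2-Aa ranked 10 with r = 0.94. Without tissues 49 and 83 the 6 values were 0.98, 0.98, 0.88, 0.84, 0.90 and 0.77 in that order. Of the class I members, B2m had r = -0.29 (-0.094 without tissues 49 and 83) and Tap1 -0.25 (0.55 without them). Psmb9 had r = 0.39, and 0.85 without these tissues, so its place depends on them.

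Over the 8 lines the genes most like Tap1 were Psmb9 (r = 0.97, rho 0.93), Ifi209 (0.96, 0.76), Sdcbp (0.95, 0.88), Timd4 (0.95, 0.88), Hspa1a (0.95, 0.86) and Gm3740 (0.94, 0.96). Line 77 weighs on these: without lines 77 and 91, Psmb9 had 0.65, Ifi209 0.83, Sdcbp 0.90, Timd4 0.66, Hspa1a 0.89 and Gm3740 0.96. Psmb8 shows it best, with r = 0.86 over all lines and -0.77 without those 2.

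Ordered by group mean, few neighbouring groups were separate. For Cd74 and H2-Aa the tissue range lay above that of the p53 het cultures, which came next, and for B2m the p53 wt lines lay above the IV ventricle NSC. All other neighbours in the order overlapped, for all 10 genes. The highest group was tissue for Psmb8, Psmb9 and all class II genes, the p53 het cultures for B2m and Tapbp, the p53 wt lines for Tap2 and the SVZ NSC for Tap1, with tissue the lowest for Tap1 and Tap2.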

How the data were processed

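Each of 31 Affymetrix arrays gave 1 column of log2 values, deposited by the authors and made with RMA per the submitters' processing notes; software versions and the build behind the probe annotation: not given in the sources used here. RMA corrects background and quantile-normalises all arrays together, which hides shifts common to all genes and leaves low probe sets with little range. Array medians were 3.166 to 3.324, no 2 arrays were identical, and the number of arrays limits the precision. Of 45101 probe sets, 34958 have 1 gene symbol, 932 several and 9211 none in the table used. Each gene is represented by its probe set of highest overall mean.

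Technical arrays of the p53 het tumours were averaged, giving 27 samples. limma 3.58.1 (R 4.3.3) was fitted on all 18194 genes: tissue against lines within tumours, and the other comparisons over tumour or culture groups and NSC. Nothing says that the NSC cultures came from separate animals, so p-values may measure only the spread between cultures. The replicate numbers of the NSC paired SVZ with both hindbrain regions (r of deviations 0.29 to 0.48), but not IV ventricle with cerebellum (-0.142 to 0.487); pairing of tissue and line comes from the labels. On simulated data with the sizes of the tissue and line comparison, 84% of genes changed by 1 and 97% changed by 2 on the log2 scale were recovered; with those of the 3 regional comparisons of NSC, 65%, 67% and 66% of genes changed by 1 were.

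Members and gene lists were chosen with earlier results of these data known. All members are named; of other lists, up to 4 genes with the smallest p between tissue and lines, up to 2 in culture comparisons, and all called genes of lists with 5 or fewer. Alternatives were other scaling, probe set choice, a filter, a minimum fold, leave-outs and blocks. Tables and figures used Python 3.11.15, pandas 2.3.3, numpy 2.4.6, scipy 1.17.1 and matplotlib 3.10.9.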

Additional observations from a re-analysis of the deposited data

Results flagged for a closer look

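In the p53 wt lines, line 77 lay far above the other 7 for Tap1 (5.13), Psmb8 (6.48) and Psmb9 (5.17), with a gap to the next line that is large against the whole range of the group. Line 77 was also the highest for 22 of 23 interferon response genes. In the tissues, tumour 49 lay far above the others for H2-Aa (5.53). In the lines, line 49 lay far below the others for the heavy chain gene H2-K1 (3.84, with the lowest other line at 5.82), and its H2-D1 was 2.81, with the lowest other at 4.79. These 5 come from 24 groups tested over 12 genes, and chance alone gives about 1 in 20 for a single group. The groups share arrays, several of the 5 fall on line 77, and H2-K1 was named after its values were seen. The 5 therefore cannot be set against that share.

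Tapbp differed from the same hindbrain NSC by 0.92 in p53 het cultures and by -0.50 in p53 wt lines, and these effects differed by 1.42 (limma adjusted p = 0.00801, between 0.000372 and 0.442 over the settings tried). Without tumour 27 they differed by 0.52.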

How the results depend on the processing

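Counts are of the 10 members called. No member changed direction while called: of 1427 refits of single members, 1396 kept their side of the threshold, 13 lost a call and 18 gained one. Tissue against lines gave 6, and 6 to 9 when leaving out 1 pair; without the genes of lower mean level, which leaves 9097 genes, only 2 members were tested and 1 was called. Tissue against hindbrain NSC gave 8 in all leave-outs (without cerebellar replicate 2, Psmb9 was lost and Tap2 gained), and 1 of 2 tested without those genes. p53 wt lines against hindbrain NSC gave 1, and 1 to 2 when leaving out 1 culture, 2 with only the groups compared, 2 with the lines of date mark 1 and 0 with those of date mark 2. p53 het cultures against NSC gave 1, with 0 without tumour 27 and 3 without tumour B, and 2 with 6 arrays and the tumour as a random block. p53 het cultures against p53 wt lines gave 1, with 0 without tumour 27 and 2 without tumour B, 0 with only the groups compared and 0 with the lines of date mark 2. Between NSC regions the count was 0 in every setting. With the replicate block it stayed at 0 in all 3 regional comparisons, over all genes 0, 196 and 280 calls against 0, 139 and 201 without it. Over all genes, lines against NSC gave 1740 calls and 820 with the date mark as a random block, and cerebellum against SVZ 201 and 728 with it as a block; the cause was not tested. Levels near those of genes of other organs, such as Ciita, cannot show a difference.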
